A study of Mus musculus with 10 samples.

Results

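The transcripts of 10 genes that sense and process foreign chemicals and steroids in the liver were followed in mice with and without hepatocyte editing of Bap1, before and after an acute dose of carbon tetrachloride (CCl4). The genes were the rows of the deposited gene matrix with the symbols Nr1i3, Nr1i2, Por, Cyp2b9, Cyp2b10, Cyp2b13, Cyp2a4, Cyp2a5, Cyp2a12 and Cyp2a22. They are 10 of the 55291 genes listed, and all 10 were among the 17015 genes with enough reads to be tested. The study asked how loss of Bap1, which encodes a nuclear deubiquitinase, alters the liver at rest and its response to damage. The 10 mice were females, 16 to 20 weeks old, and RNA of each liver was sequenced.

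All mice carried Cas9 behind a Lox-Stop-Lox cassette and received an AAV8 vector with a guide RNA and Cre under the TBG promoter, which is active in hepatocytes. Editing was thus directed to hepatocytes, while whole liver holds other cells too, and hepatocytes that escaped the edit were not told apart here. The guide was a non-targeting control (NTC) or a guide to Bap1 (sgBap1). At day 10 the mice received one intraperitoneal injection of vehicle (Veh) or of CCl4 diluted 1:9 in olive oil, at 10 µL per g of body weight, and livers were taken 48 h later. The 4 groups were NTC-Veh and sgBap1-Veh with 2 mice each, and NTC-CCl4 and sgBap1-CCl4 with 3 mice each.

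Nr1i3 encodes the constitutive androstane receptor (CAR) and Nr1i2 the pregnane X receptor (PXR). Both are nuclear receptors that pair with the retinoid X receptors, respond to drugs, steroids and bile acids, and switch on genes of oxidation, conjugation and transport. Cytochrome P450 enzymes of the Cyp2a and Cyp2b families are among their targets in the mouse, with Cyp2b10 the classical target of CAR. Por encodes the reductase that hands electrons from NADPH to microsomal P450 enzymes. Cyp2a5 is the coumarin hydroxylase of mouse liver, and Cyp2a4 a steroid hydroxylase. Cyp2a4, Cyp2b9 and Cyp2b13 are known as genes with higher expression in female than in male liver, a pattern set by growth hormone. CCl4 is toxic after activation by P450 enzymes, chiefly Cyp2e1, in the hepatocytes around the central vein.

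The 7 P450 genes lie in one cluster on chromosome 7 (GRCm38), which spans 1.36 Mb from 25802475 to 27158668 with 6 further Cyp2 genes. Nr1i3 lies on chromosome 1 from 171213970 to 171220701, Nr1i2 on chromosome 16 from 38248323 to 38294824, and Por on chromosome 5 from 135670033 to 135735326. Cyp2a4 (26307169 to 26315088) and Cyp2a5 (26835305 to 26843548) start 528 kb apart on the same strand, yet their coding sequences are 98.5% identical, with 23 of 1485 bases different. A stretch of this coding sequence is shown because these genes went in opposite directions with CCl4 in NTC mice. The stretch covers coding bases 586 to 666, counted from 1 at the start codon, and joins parts of exons 4 and 5 of 9. In Cyp2a4 these exonic bases lie between 26309020 and 26310717, and in Cyp2a5 between 26837183 and 26838879, on the plus strand. Capitals mark the 4 of 81 bases that differ, which are T603G, A607C, C625T and G655C with the Cyp2a4 base first. The change at base 625 falls in codon 209, whose residue is known to decide between steroid and coumarin as the preferred substrate.
Cyp2a4: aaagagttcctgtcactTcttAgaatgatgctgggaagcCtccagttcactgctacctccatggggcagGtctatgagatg
Cyp2a5: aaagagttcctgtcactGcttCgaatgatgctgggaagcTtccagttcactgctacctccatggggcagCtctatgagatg

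The bases just before the RefSeq transcription starts are shown for the same pair and for Cyp2b9 with Cyp2b13, because the members of each pair share almost all of them. Each sequence holds 250 bases on the plus strand of GRCm38.p6, and capitals mark the bases that differ within the pair. The Cyp2a4 stretch (chr7:26306942-26307191) and the Cyp2a5 stretch (chr7:26835089-26835338) differed at 4 of 249 aligned bases. The Cyp2b9 stretch (chr7:26173159-26173408) and the Cyp2b13 stretch (chr7:26061245-26061494) differed at 2 of 250.
Cyp2a4: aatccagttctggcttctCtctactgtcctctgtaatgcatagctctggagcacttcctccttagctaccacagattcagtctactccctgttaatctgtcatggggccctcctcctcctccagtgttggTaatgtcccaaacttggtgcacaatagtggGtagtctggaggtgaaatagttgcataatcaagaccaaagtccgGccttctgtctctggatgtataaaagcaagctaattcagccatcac
Cyp2a5: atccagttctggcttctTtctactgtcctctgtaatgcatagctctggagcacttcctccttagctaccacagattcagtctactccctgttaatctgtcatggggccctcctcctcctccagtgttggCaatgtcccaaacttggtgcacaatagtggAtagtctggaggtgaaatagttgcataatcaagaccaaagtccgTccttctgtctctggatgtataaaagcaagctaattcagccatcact
Cyp2b9: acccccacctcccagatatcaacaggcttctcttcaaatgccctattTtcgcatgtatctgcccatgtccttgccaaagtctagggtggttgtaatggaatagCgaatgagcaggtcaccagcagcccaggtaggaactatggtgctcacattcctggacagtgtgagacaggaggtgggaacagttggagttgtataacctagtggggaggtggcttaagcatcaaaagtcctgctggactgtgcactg
Cyp2b13: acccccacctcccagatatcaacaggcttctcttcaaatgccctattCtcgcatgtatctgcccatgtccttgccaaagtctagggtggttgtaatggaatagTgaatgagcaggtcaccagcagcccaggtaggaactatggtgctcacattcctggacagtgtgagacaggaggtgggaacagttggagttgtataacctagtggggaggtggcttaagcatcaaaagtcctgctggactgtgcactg

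By comparison, the promoters of Cyp2a12 and Cyp2a22 were 88.7% identical, and those of Cyp2b9 and Cyp2b10 70.5%. Letters known from binding sites of liver factors were searched on both strands of the 10 promoters, after the sequences had been looked at. TTGCATAA, a C/EBP site, was found in Cyp2a4, Cyp2a5 and Cyp2b10, and in 0.694% of 32851 mouse promoters of this length. CAAAGTCC, a site of HNF4, was found in Cyp2a4 and Cyp2a5, and in 1.2% of all promoters. The nuclear receptor half-site AGGTCA was found in Cyp2b9 and Cyp2b13 (14% of all promoters) and TATAAA in the 4 Cyp2a genes (12.4%). TTCNNNGAA, the letters of a STAT5 site, was in none of the 10 windows and in 7.02% of all promoters. None of these matches overlapped another, and a match describes letters, not binding.

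Levels are given in CPM, the estimated counts of a gene as a part of the total of its library after scaling between libraries. Libraries held 33047904 to 52199904 estimated counts, and 3 counts, the floor of detection, were worth 0.0511 to 0.112 CPM. Bap1 stood at 34.8 and 34.8 CPM in the NTC-Veh mice, while sgBap1-Veh mice had 17.5 and 19.5 CPM. With CCl4 it was at 30.1, 31.5 and 29.5 CPM in NTC mice and at 17, 21.8 and 19.1 CPM under sgBap1. The guide groups did not overlap, and Bap1 was called lower in sgBap1 mice with vehicle (log2 fold change −0.91, adjusted p = 0.0208) and with CCl4 (−0.65, adjusted p = 0.0295). Leaving out each mouse in turn, the estimates ran from −0.99 to −0.84 and from −0.75 to −0.57. The call with vehicle was lost without any 1 of the 4 vehicle mice (adjusted p of up to 0.12), and that with CCl4 without any NTC mouse or sgBap1-CCl4 replicate 1 (up to 0.147). Fold changes, standard errors (SE) and p-values come from edgeR's quasi-likelihood test, adjusted over all genes tested, and a gene was called at an adjusted p under 0.05. The 5 adipocyte markers summed to 106 CPM in sgBap1-CCl4 replicate 2 and to at most 0.573 CPM in the other 9 mice. Values without this mouse are given where leaving it out changed a count of calls given below for the members or for a gene list. The labels do not give litters or batches beyond separate mice, and p-values measure the spread between these mice.

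With CCl4, almost the whole set fell. In NTC mice 8 members were called lower and 1 higher, and in sgBap1 mice all 10 were called lower. Many other genes also changed: 53.9% of the 17015 tested genes were called in NTC mice (26.6% lower, 27.4% higher) and 57% in sgBap1 mice (28% lower, 29% higher). The median log2 fold change of the 10 members was −1.94 in NTC and −2.07 in sgBap1 mice, beside 0.03 and 0.04 over all genes tested. Levels of all 9 members with a lower mean in NTC-CCl4 lay below both NTC-Veh mice in every CCl4 mouse, while 35% of all genes were separated in this direction. In sgBap1 mice the same held for all 10 members, beside 34.9% of all genes. Without sgBap1-CCl4 replicate 2, the counts of members called were again 9 and 10. Scaled by library size alone, the median over all genes was 0.50 and 0.52 in NTC and sgBap1 mice, and 80.5% and 78.3% of all calls were higher, in place of 50.8% and 50.9%, with 9 members called for either guide and Cyp2b10 not called. The members' estimates moved with that shift, as from −2.45 to −1.98 for Nr1i3 and from −0.79 to −0.31 for Cyp2a12 in NTC mice, and none changed sign. The plot of member levels shows the mice one by one.

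**Figure D1:**
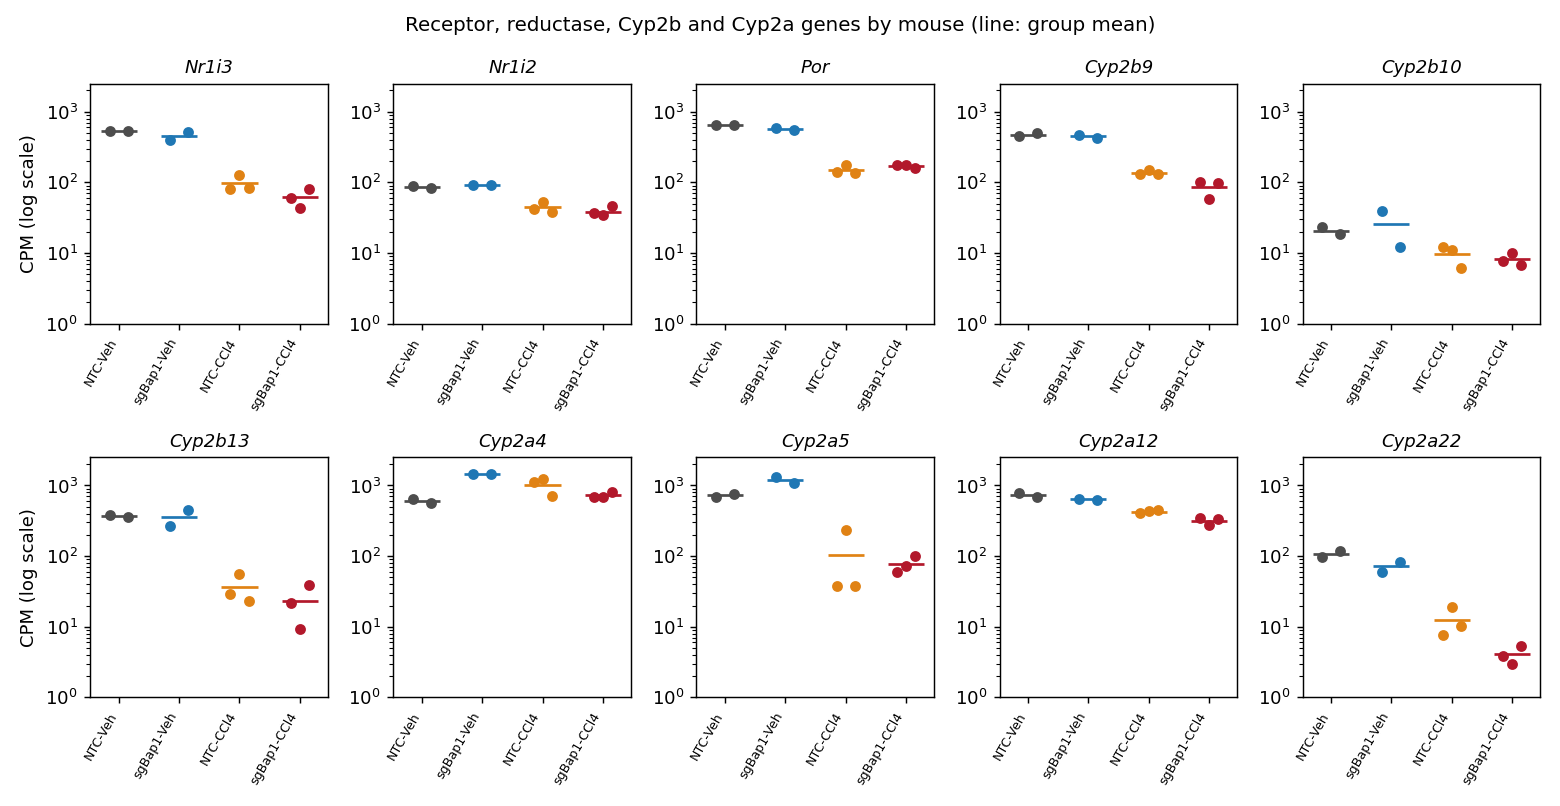
Levels of the 10 member genes in CPM (log axis) in every mouse, with 1 panel per gene; each point is 1 mouse and each line a group mean. With CCl4 the points lie below the vehicle points of the same guide for every member except Cyp2a4, which in NTC mice lies above them (603 CPM on average with vehicle, 1022 with CCl4).

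In bulk liver, fewer hepatocytes and less of a transcript per hepatocyte cannot be told apart. The 7 hepatocyte markers measured together held 140219 to 176500 CPM in NTC and 119647 to 130254 CPM in sgBap1 mice given vehicle. After CCl4 they held 95400 to 105174 CPM in NTC and 82180 to 107205 CPM in sgBap1 mice, and none was at 0. Alb, which encodes albumin, held most of these sums, with means of 104551 and 61893 CPM in NTC and 86131 and 64417 CPM in sgBap1 mice with vehicle and CCl4. Of the 7, 4 were called lower and 0 higher in NTC mice, and 1 lower and 1 higher in sgBap1 mice, with medians of −0.67 and −0.42. Leaving out sgBap1-CCl4 replicate 2, the counts in NTC mice were 5 lower and 1 higher. The one called higher in sgBap1 mice was Fga, a chain of fibrinogen, with means of 4259 CPM with vehicle and 7271 CPM with CCl4. Scaled by library size alone, the medians were −0.18 and 0.05, with 2 lower and 1 higher in NTC mice and 0 and 2 in sgBap1 mice. The 6 markers of recruited monocytes and macrophages rose from sums of 43.7 to 50.6 CPM (NTC) and 44.8 to 50.6 CPM (sgBap1) with vehicle to 311 to 392 CPM and 388 to 544 CPM with CCl4, and all 6 were called higher with CCl4 for either guide. Neutrophil markers summed to 3.08 to 6.22 CPM with vehicle and 15.4 to 24.7 CPM with CCl4, and Ly6g had at most 2 counts in any vehicle mouse. The part of these cells in the lower levels of the members was not tested.

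Both receptors fell, and the estimate was larger for CAR than for PXR. Nr1i3 stood at 527 and 536 CPM in NTC-Veh, at 399 and 518 in sgBap1-Veh, 79.8, 127 and 84.6 in NTC-CCl4, and 59.6, 44 and 81.8 in sgBap1-CCl4. The mean with CCl4 was 18.3% of the vehicle mean in NTC mice (97 ± 25.9 against 532 ± 6.21 CPM, SD, n = 3 and 2) and 13.5% in sgBap1 mice (61.8 ± 19 against 458 ± 84.1 CPM). Vehicle and CCl4 mice were separated by a wide gap for both guides. The log2 fold changes were −2.45 in NTC mice (SE 0.27, adjusted p = 5.53e-05) and −2.89 in sgBap1 mice (SE 0.27, adjusted p = 2.1e-05). Nr1i3 overlaps Tomm40l on the other strand, and the counting is not stated to use strand. Tomm40l was at 6.48 to 16.1 CPM over the mice, and whether the 2 genes share reads was not tested.

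Nr1i2 stood at 88 and 84 CPM in NTC-Veh, at 92.8 and 92.4 in sgBap1-Veh, 42.1, 52.4 and 38.4 in NTC-CCl4, and 36.4, 34 and 45.6 in sgBap1-CCl4. It thus kept 51.5% of its vehicle level in NTC mice and 41.7% in sgBap1 mice. The log2 fold changes were −0.96 in NTC mice (SE 0.14, adjusted p = 0.000303) and −1.26 in sgBap1 mice (SE 0.14, adjusted p = 4.57e-05). The difference between the 2 receptors was not itself tested.

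Por, the electron donor shared by all microsomal P450 enzymes, varied little between mice of a group. It stood at 649 and 657 CPM in NTC-Veh, at 585 and 557 in sgBap1-Veh, 139, 174 and 137 in NTC-CCl4, and 176, 174 and 162 in sgBap1-CCl4. Its highest mouse was 1.01 to 1.27 times its lowest within each group. Por fell to 23% of the vehicle mean in NTC mice (log2 fold change −2.12, SE 0.12, adjusted p = 1.22e-06) and to 29.9% in sgBap1 mice (−1.74, SE 0.12, adjusted p = 2.53e-06). Por was the one member with a positive interaction estimate, 0.38 (SE 0.17, adjusted p = 0.487), which did not pass the test.

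Of the 3 Cyp2b genes, Cyp2b9 and Cyp2b13, known for their higher levels in females, made up nearly all of the reads. Cyp2b9 stood at 449 and 495 CPM in NTC-Veh, at 476 and 427 in sgBap1-Veh, 131, 151 and 133 in NTC-CCl4, and 101, 58 and 99.2 in sgBap1-CCl4. It fell in NTC mice (log2 fold change −1.77, SE 0.20, adjusted p = 5.53e-05) and in sgBap1 mice (−2.39, SE 0.21, adjusted p = 9.12e-06). The 3 sgBap1-CCl4 mice all lay below the 3 NTC-CCl4 mice.

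Cyp2b13 fell more steeply, from 378 and 358 CPM in NTC-Veh to 29.1, 55.9 and 23.4 in NTC-CCl4. In sgBap1 mice it went from 270 and 455 CPM with vehicle to 21.5, 9.35 and 39.1 with CCl4. That left 9.81% and 6.43% of the vehicle means. The log2 fold change was −3.35 in NTC mice (SE 0.59, adjusted p = 0.00198) and −3.96 in sgBap1 mice (SE 0.61, adjusted p = 0.000869). The share of Cyp2b13 in the sum of the 3 genes went from 42.8% to 19% in NTC mice and from 42.6% to 18.5% in sgBap1 mice, while that of Cyp2b9 went from 54.8% to 75.8% and from 54.2% to 73.6%. The two-sided exact permutation test was run by doubling the smaller tail. In that form it cannot give a p below 0.2 with 2 against 3 mice, so these shares are descriptions. The difference between the falls of Cyp2b9 and Cyp2b13 was not itself tested. Reads can be split between these 2 genes, since 10.8% of the 50-base stretches of Cyp2b13 occur also in Cyp2b9, and 10.8% the other way. Over all other genes, 27.3% of the stretches of Cyp2b13 and 11.2% of those of Cyp2b9 are shared.

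Cyp2b10, which CAR activators induce, was the lowest of the 7 P450 genes per kilobase with vehicle and the most variable of the members there. It stood at 23.3 and 18.3 CPM in NTC-Veh, at 38.8 and 12 in sgBap1-Veh, 12, 10.9 and 6.06 in NTC-CCl4, and 7.76, 10 and 6.76 in sgBap1-CCl4. One sgBap1-Veh mouse had 3.24 times the level of the other. In NTC mice the log2 fold change was −1.10 (SE 0.46, adjusted p = 0.0749), which missed the threshold although the mice did not overlap. In sgBap1 mice it was −1.64 (SE 0.46, adjusted p = 0.0156), and without sgBap1-Veh replicate 1 this became −0.54 (adjusted p = 0.255). No group showed a level of Cyp2b10 above NTC-Veh that passed the test.

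Within the Cyp2a family the genes took separate courses. Cyp2a12 went from 787 and 694 CPM in NTC-Veh to 405, 432 and 448 in NTC-CCl4, and from 643 and 631 in sgBap1-Veh to 343, 279 and 336 in sgBap1-CCl4. Its means with CCl4 were 57.8% and 50.1% of those with vehicle. The estimates were −0.79 (SE 0.12, adjusted p = 0.000341) for NTC and −1.0 (SE 0.12, adjusted p = 6.87e-05) for sgBap1 mice. Cyp2a22, whose coding sequence is 97% identical to that of Cyp2a12, fell much further. It went from 96.1 and 118 CPM in NTC-Veh to 7.57, 19.1 and 10.3 in NTC-CCl4, and from 60.1 and 82.8 in sgBap1-Veh to 3.88, 2.98 and 5.34 in sgBap1-CCl4. The means with CCl4 were 11.5% and 5.69% of those with vehicle. This gave log2 estimates of −3.12 (SE 0.38, adjusted p = 0.000211) in NTC mice and −4.14 (SE 0.40, adjusted p = 5.39e-05). Its share of the sum of Cyp2a12 and Cyp2a22 went from 12.7% to 2.77% in NTC and from 10.1% to 1.25% in sgBap1 mice. Of the 50-base stretches of Cyp2a12, 20.1% occur also in other genes, and 20.2% of those of Cyp2a22 do.

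**Figure D2:**
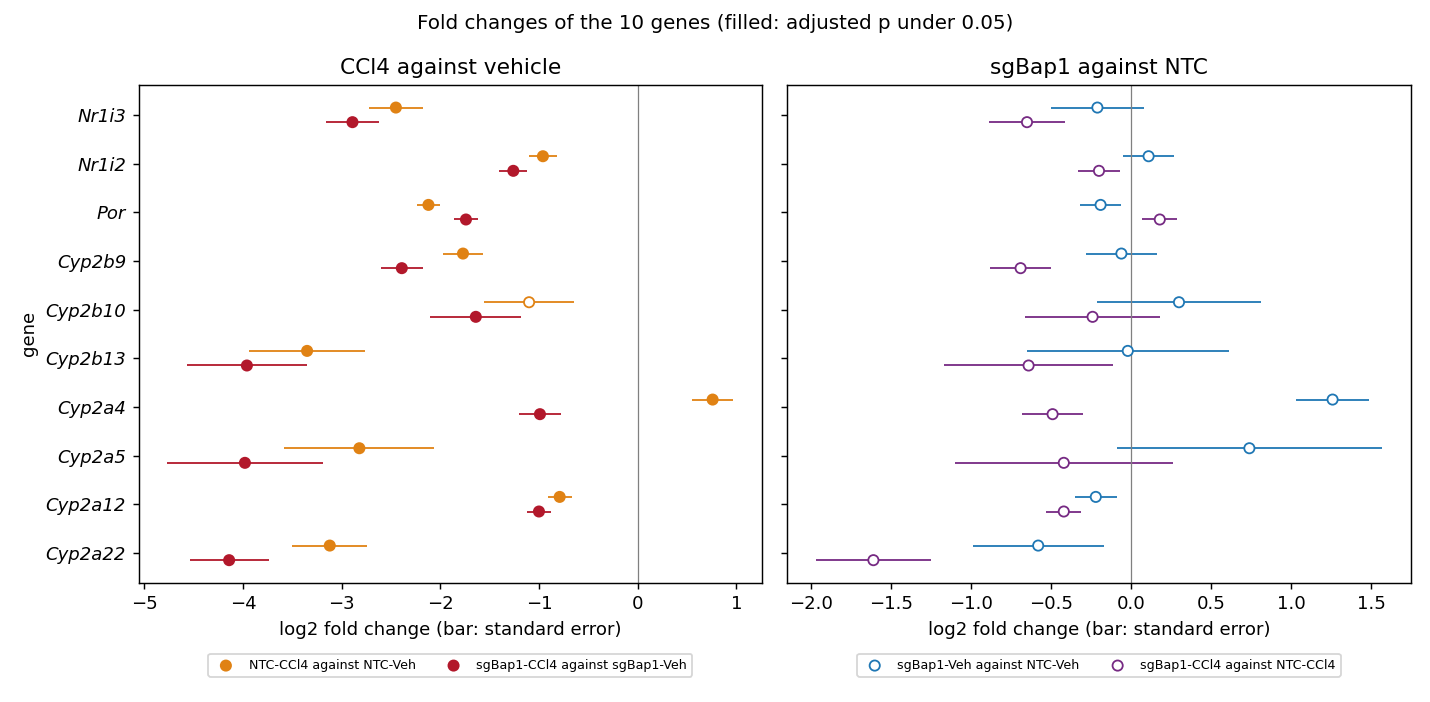
Log2 fold changes of the 10 members in the comparisons of guides and of treatments; points are estimates of edgeR's quasi-likelihood fit and lines show 1 SE either side and filled points passed the test. With CCl4 the estimates lie below 0 for every member but Cyp2a4 in NTC mice (0.76). Between guides they run from −1.61 to 1.26. For Cyp2a4 the estimate between guides with vehicle (1.26) lies farther from 0 than those with CCl4 (0.76 and −0.99).

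Cyp2a5, the coumarin hydroxylase, was among the genes with the deepest fall. It stood at 690 and 764 CPM in NTC-Veh, at 1326 and 1101 in sgBap1-Veh, 37.8, 232 and 38.3 in NTC-CCl4, and 60.2, 71.4 and 99.5 in sgBap1-CCl4. NTC-CCl4 replicate 2 held 6.14 times the level of the lowest mouse of its group, the widest spread of any member in any group. The means with CCl4 were 14.1% and 6.35% of those with vehicle. On the log2 scale this was −2.82 (SE 0.76, adjusted p = 0.0151) in NTC mice and −3.98 (SE 0.79, adjusted p = 0.00346). Without NTC-CCl4 replicate 2 the fall in NTC mice was −4.26 (SE 0.25, adjusted p = 4.97e-06), and without NTC-Veh replicate 2 its adjusted p was 0.0514. In sgBap1 mice without sgBap1-CCl4 replicate 2 it was −3.93 (adjusted p = 0.0252).

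Cyp2a4, its near-identical paralog with steroid hydroxylase activity, rose in NTC mice and fell in sgBap1 mice. It stood at 648 and 558 CPM in NTC-Veh and at 1106, 1243 and 717 in NTC-CCl4, a 1.69-fold rise of the mean (log2 fold change 0.76, SE 0.21, adjusted p = 0.0118). All 3 NTC-CCl4 mice lay above both NTC-Veh mice, a separation seen upward in 36.7% of all genes. Without NTC-Veh replicate 2 the estimate was 0.66 with an adjusted p of 0.095, so the call rests on that mouse. In sgBap1 mice Cyp2a4 stood at 1462 and 1437 CPM with vehicle and at 680, 683 and 822 with CCl4. That was 50.3% of the vehicle mean (log2 fold change −0.99, SE 0.21, adjusted p = 0.00211), with no overlap between the mice. Levels in the 2 CCl4 groups overlapped through NTC-CCl4 replicate 3 (717 CPM). The estimate between guides was −0.49 with CCl4 (adjusted p = 0.282) and 1.26 with vehicle (adjusted p = 0.0507), and neither was called.

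The change with CCl4 thus differed between guides in its estimate for Cyp2a4, by −1.75 on the log2 scale (SE 0.30, unadjusted p = 0.00014 in edgeR's fit over all genes). The adjusted p was 0.0694, which misses the threshold. No gene tested had a smaller one, but the adjustment gives other genes this same value. It does not place Cyp2a4 first among the genes. No gene was called for this interaction (0% of the 17015), with 1764 genes at an unadjusted p under 0.05. DESeq2's Wald test called 406 of 15058 genes (2.7%), and Cyp2a4 was among them (−1.76, adjusted p = 2.5e-06). For the other 9 members the interaction estimates ran from −1.16 for Cyp2a5 to 0.38 for Por, and none passed either test.

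The sum of the pair was not called with CCl4 in NTC mice, while the balance within it shifted for both guides. The sum of Cyp2a4 and Cyp2a5 was 1338 and 1322 CPM in NTC-Veh and 1143, 1475 and 755 CPM in NTC-CCl4 (log2 fold change −0.24, SE 0.23, adjusted p = 0.408). In sgBap1 mice it was 2787 and 2537 CPM with vehicle and 741, 755 and 921 CPM with CCl4 (−1.72, SE 0.23, adjusted p = 0.000131). Cyp2a4 made up 48.4% and 42.2% of the sum in NTC-Veh and 52.4% and 56.6% in sgBap1-Veh. With CCl4 it made up 96.7%, 84.3% and 94.9% in NTC mice and 91.9%, 90.5% and 89.2% in sgBap1 mice. The shares with CCl4 lay above all vehicle shares for either guide. The exact permutation test, run by doubling the smaller tail, gave its smallest possible p for 2 against 3 mice (0.2).

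**Figure D3:**
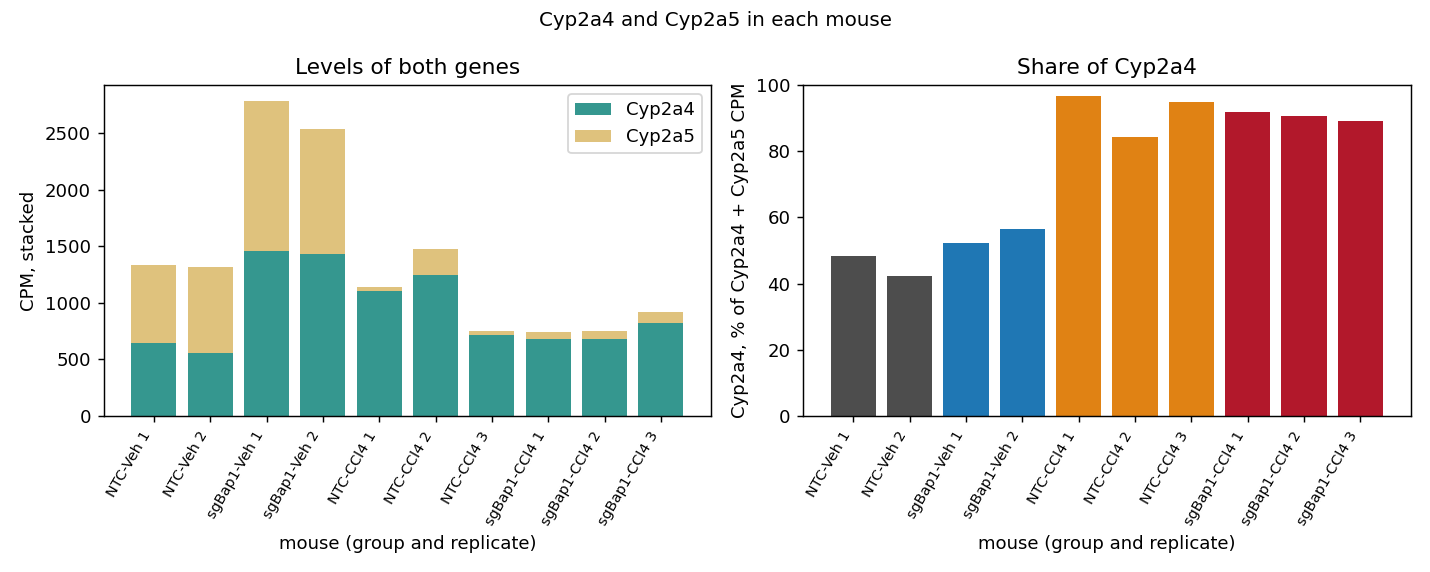
Stacked bars of the levels of Cyp2a4 and Cyp2a5 in CPM (left) and bars of the share of Cyp2a4 in their sum in percent (right), with 1 bar per mouse. With vehicle Cyp2a4 makes up 42.2% to 56.6% of the sum in the 4 mice, and with CCl4 84.3% to 96.7% in the 6 mice.

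The split of reads between these genes rests on the stretches in which they differ. Of the 50-base stretches of the Cyp2a4 transcripts, 36.1% occur also in Cyp2a5, and 28.1% of those of Cyp2a5 occur also in Cyp2a4. Salmon divides such reads between the genes by estimate, guided by the reads that cover a difference such as those shown in capitals. Over all other genes, 38% of the 50-base stretches of Cyp2a4 and 37% of those of Cyp2a5 are shared. No such stretch of Nr1i3, Nr1i2 or Por occurs in another gene. The genes that overlap Cyp2a4 (Gm42375, 0.749 to 8.72 CPM) and Cyp2b13 (Rnf170-ps, 0.357 to 1.47 CPM) were at low levels in all mice.

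Per kilobase of transcript, which allows levels to be compared between genes, the order of the 7 P450 genes changed with treatment. In NTC-Veh, Cyp2a12 led with 440 CPM per kb, followed by Cyp2a5 (361) and Cyp2a4 (347), which overlapped each other between mice. Cyp2b9 (252), Cyp2b13 (196), Cyp2a22 (59.6) and Cyp2b10 (10.8) followed without overlap. In sgBap1-Veh, Cyp2a4 led with 834 CPM per kb before Cyp2a5 (603) and Cyp2a12 (379).

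With CCl4, Cyp2a4 stood first for both guides, at 588 CPM per kb in NTC-CCl4 and 419 in sgBap1-CCl4. It then made up 58.9% of the summed per-kilobase level of the 7 genes in either group, beside 20.8% in NTC-Veh. Cyp2a12 came second with 255 and 190 CPM per kb. Cyp2b9 (73.7 and 45.8) and Cyp2a5 (51 and 38.3) followed, and their mice overlapped in both groups. The lowest were Cyp2a22 and Cyp2b10, at 6.85 and 5.04 CPM per kb in NTC-CCl4 and at 2.26 and 4.27 in sgBap1-CCl4.

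No member was called between sgBap1-Veh and NTC-Veh, beside 69 of all genes (0.406%). An unadjusted p under 0.05 was found for 2100 of the 17015 genes tested, and for 1 member. That member was Cyp2a4, whose mean was 2.4 times higher in sgBap1-Veh (1449 ± 17.6 against 603 ± 63.5 CPM, SD, n = 2 each). Its log2 fold change of 1.26 (SE 0.23) had an adjusted p of 0.0507, just above the threshold. Without sgBap1-CCl4 replicate 2, which changes the shared estimate of spread, it was 1.27 with an adjusted p of 0.0458. It was called in 2 of the 10 fits without 1 mouse, with adjusted p from 0.0254 to 0.295. DESeq2's Wald test called it (adjusted p = 5.26e-06), as 1 of the 548 genes called of 15058 (3.64%). The call for Cyp2a4 therefore depends on the test and on the mice.

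Cyp2a5 was also higher in both sgBap1-Veh mice than in both NTC-Veh mice, with a mean of 1213 ± 159 against 727 ± 52.6 CPM, but its log2 fold change of 0.74 (SE 0.83) had an adjusted p of 0.81. Its SE reflects the spread of the CCl4 mice, and without NTC-CCl4 replicate 2 it was 0.22 (adjusted p = 0.201). In all, 3 members lay higher and 4 lower in sgBap1-Veh with no overlap between the mice, where 21.7% and 19.2% of all genes did so. The 6 Kupffer cell markers summed to 340 to 515 CPM in sgBap1-Veh and 161 to 268 CPM in NTC-Veh, with all 6 estimates higher and none called. T and NK cell markers summed to 6.66 to 7.29 CPM against 1.77 to 4.3 CPM. Their part in the levels of Cyp2a4 and Cyp2a5 was not tested.

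With CCl4, 9 of the 10 members had lower estimates in sgBap1 than in NTC mice, but none was called, beside 56 of all genes (0.329%). The median log2 fold change was −0.46, beside 0.00 over all genes. An unadjusted p under 0.05 was found for 5 members, beside 2376 of the 17015 genes tested. Cyp2b9, Cyp2a12 and Cyp2a22 lay lower in all 3 sgBap1-CCl4 mice than in all 3 NTC-CCl4 mice, where 10.2% of all genes did so. Their log2 fold changes were −0.69 (SE 0.19, adjusted p = 0.143), −0.42 (SE 0.11, adjusted p = 0.132) and −1.61 (SE 0.36, adjusted p = 0.119). Cyp2a22 thus had the largest fold change of these, though at low levels. Its mean of 4.07 ± 1.19 CPM in sgBap1-CCl4 was 33% of that in NTC-CCl4, 12.3 ± 6.02 CPM (SD, n = 3 each).

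DESeq2's Wald test called these 3 members lower (adjusted p = 0.014 for Cyp2b9, 0.00563 for Cyp2a12 and 0.00751 for Cyp2a22), among 279 genes called lower of 15567 (1.79%). Without sgBap1-CCl4 replicate 2, the mouse with adipocyte markers, the edgeR estimates were −0.47, −0.33 and −1.43 and none was called. Nr1i3 had an estimate of −0.65 (SE 0.24, adjusted p = 0.272) and Por one of 0.18 (SE 0.11, adjusted p = 0.479). Cyp2a5 was at −0.42 (SE 0.68, adjusted p = 0.833), and without NTC-CCl4 replicate 2 its estimate turned to 1.02 (adjusted p = 0.0955). The direction for Cyp2a5 between guides thus hangs on 1 mouse. NTC-CCl4 replicate 2 was the highest of its group for 8 of the 10 members, and sgBap1-CCl4 replicate 2 the lowest of its group for 6. The comparisons share groups, so that their values stand side by side and are not independent of one another.

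Of the 6 other genes of the cluster, 3 were tested and 2 fell. Cyp2f2, an enzyme of lung and liver that activates naphthalene, fell from 654 and 656 CPM in NTC-Veh to 121, 102 and 151 in NTC-CCl4 (log2 fold change −2.39, SE 0.21, adjusted p = 1.11e-05). In sgBap1 mice its log2 fold change was −3.10 (SE 0.21, adjusted p = 2.89e-06). Cyp2g1, which lies next to Cyp2a5 and is best known from the nose, fell from 6.86 and 13.7 CPM to 0.554, 1.31 and 0.755 CPM in NTC mice (−3.52, SE 0.36, adjusted p = 2.93e-05) and likewise in sgBap1 mice (−4.91, SE 0.44, adjusted p = 1.2e-05). Cyp2s1 had at most 63 counts in a mouse and was not called, Cyp2b23 had at most 3 counts, and Cyp2b19 and Cyp2t4 had 0 in every mouse. Along the cluster, genes with falls of unlike size lay side by side, as Cyp2a22 (−3.12 in NTC mice) beside Cyp2a12 (−0.79).

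**Figure D4:**
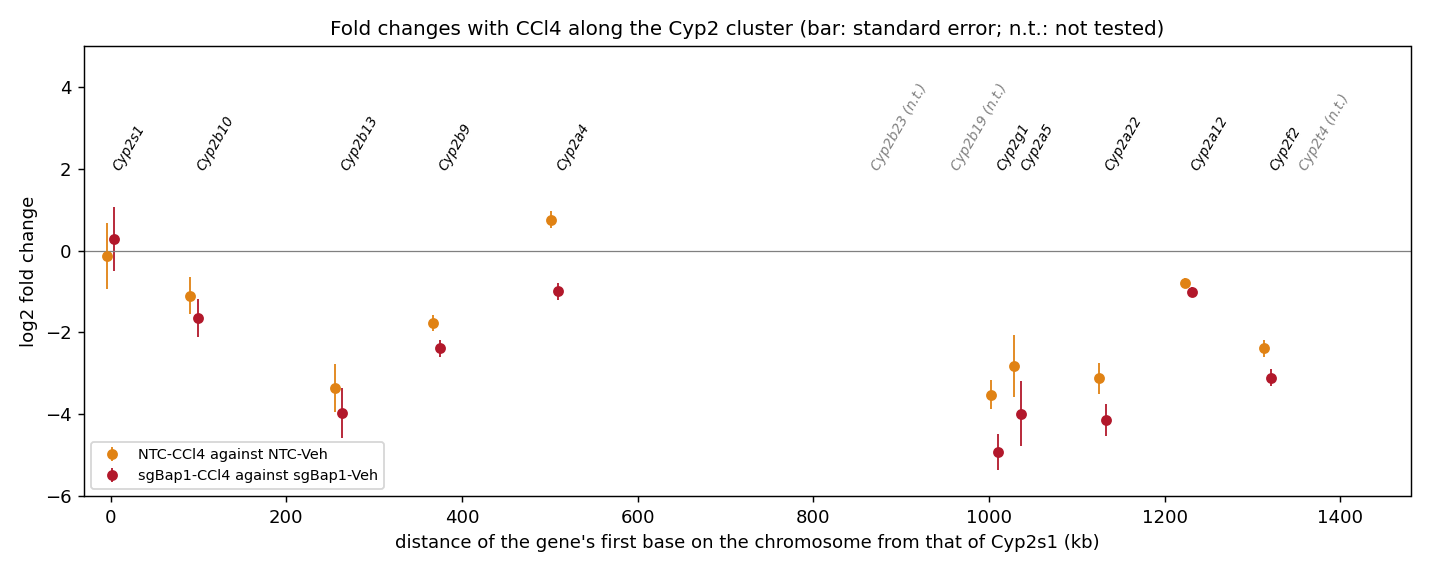
Log2 fold changes with CCl4 in NTC and sgBap1 mice of the tested Cyp2 genes of the cluster, plotted by the distance of each start from that of the first gene in kb; lines show 1 SE either side. Cyp2a4, at 505 kb, is the one gene with opposite directions that passed the test for both guides (0.76 and −0.99), while Cyp2a5, at 1033 kb, fell for both (−2.82 and −3.98).

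The genes whose pattern over the 10 mice was most like that of each member were sought among 12028 genes with at least 100 counts on average, by the root mean square difference of log2 CPM around each gene's own mean. Nr1i3 was nearest to Cmbl (0.17), Inca1 (0.18) and Slco1b2 (0.20), the last a hepatic uptake transporter, and Nr1i2 to Flad1 (0.07), Bckdhb (0.08) and Aspscr1 (0.08). Por was nearest to Isoc2b (0.11), and Cyp2a12 to Acsf2 (0.09). Cyp2b13 was nearest to Slc10a1 (0.42), the bile acid uptake carrier, with Cyp2a22 at rank 4 (0.48). Cyp2a22 was nearest to Lrtm1 (0.30), with Cyp2g1 at rank 3 (0.42).

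Cyp2a4 and Cyp2a5 were far apart by this measure. Cyp2a4 was nearest to Ugt1a9 (0.26), a glucuronosyltransferase, which had means of 73.2 ± 16.3 CPM in NTC-Veh, 185 ± 7.1 in sgBap1-Veh, 97.3 ± 10.6 in NTC-CCl4 and 97.9 ± 19.3 in sgBap1-CCl4. Cyp2a5 ranked only 11721 of the 12028 genes by likeness to Cyp2a4 (1.86). Its own nearest genes were Gm26588 (0.62), Nr1h5 (0.64) and Prodh (0.66), all at a greater distance than the nearest genes of the other members.

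Over all genes tested, 26.6% were called lower and 27.4% higher with CCl4 in NTC mice, and 28% and 29% in sgBap1 mice. Among 22 partners and co-regulators of CAR and PXR, 10 were called lower and 3 higher with CCl4 in NTC mice. In sgBap1 mice 9 were called lower and 3 higher, and the list medians were −0.21 (NTC) and −0.22 (sgBap1). Without sgBap1-CCl4 replicate 2 the counts in sgBap1 mice were 8 and 3. Scaled by library size alone, the balance turned, with 4 called lower and 9 higher in NTC mice (median 0.27) and 3 and 10 in sgBap1 mice (median 0.26). Rxra, the main partner of both receptors, fell in NTC mice (log2 fold change −0.82, adjusted p = 0.000147) and in sgBap1 mice (−0.60). Cebpa, a hepatocyte transcription factor of the C/EBP family, fell from 362 and 341 CPM to 112, 152 and 93.2 CPM in NTC mice (−1.56, SE 0.18, adjusted p = 6.42e-05) and in sgBap1 mice (−1.92, SE 0.19, adjusted p = 1.68e-05). Hnf4a, which maintains hepatocyte identity, had estimates of −0.25 (adjusted p = 0.125) and −0.21 (adjusted p = 0.194), neither past the threshold, and 0.26 in sgBap1 mice (adjusted p = 0.0402) when scaled by library size alone. Gadd45b, a stress gene and a partner of CAR, rose by 1.68 and 1.94, and Hsp90aa1, a chaperone that holds CAR in the cytoplasm, by 1.13 and 1.15.

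Foxo1, a factor that can act with CAR and PXR, was the one of these 22 genes called between the guides with CCl4. It stood at 33, 26.8 and 27.1 CPM in NTC-CCl4 and at 51.4, 51.8 and 54.8 in sgBap1-CCl4 (log2 fold change 0.86, SE 0.11, adjusted p = 0.0189). The estimate was 0.88 without sgBap1-CCl4 replicate 2 (adjusted p = 0.0344), and the call was lost without any 1 of the NTC-CCl4 mice or sgBap1-CCl4 replicate 1 (0.81 to 0.97, adjusted p of up to 0.092). With vehicle it was at 54.3 and 42.1 CPM in NTC and 43.7 and 46.7 in sgBap1 mice. It fell with CCl4 in NTC mice (−0.73, SE 0.12, adjusted p = 0.000601), and in sgBap1 mice its estimate was 0.22 (adjusted p = 0.156).

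Of 21 other target genes of CAR and PXR, 12 were called lower and 1 higher in NTC mice and 14 lower and 1 higher in sgBap1 mice, with medians of −0.84 and −1.41. Leaving out sgBap1-CCl4 replicate 2, 13 were called lower in NTC mice. Cyp3a11, the classical PXR target, had log2 fold changes of −2.22 in NTC (SE 0.35, adjusted p = 0.000631) and −2.93 in sgBap1 mice (SE 0.36, adjusted p = 0.000119). Cyp2c37 (−3.90 and −3.62) and Slco1a4, an organic anion transporter (−3.76 and −3.32), also fell. The one that rose for both guides was Abcc4, an efflux pump of the sinusoidal membrane (2.80, SE 0.41, adjusted p = 0.000547 in NTC mice and 2.61 in sgBap1 mice). Between guides 0 of the 21 were called with vehicle or with CCl4.

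The genes that supply P450 enzymes with electrons and heme mostly fell with Por. Of 17, 13 were called lower and 2 higher in NTC mice, and 13 and 1 in sgBap1 mice, with medians of −0.58 and −0.70. Scaled by library size alone, 6 were called lower in NTC mice and 9 in sgBap1 mice, with 2 higher in each. Alas1, the rate-limiting enzyme of heme synthesis, fell in NTC (−1.43, SE 0.25, adjusted p = 0.000819) and in sgBap1 mice (−1.19), as did Cyb5a, a further electron donor of P450 enzymes (−1.35 and −1.71). Hmox1, which breaks heme down, rose in both (2.75, SE 0.25, adjusted p = 2.11e-05, and 1.83).

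Of 18 female-biased liver genes, 15 were called lower and 1 higher in NTC mice and 17 and 1 in sgBap1 mice, with medians of −3.0 and −4.02. Without sgBap1-CCl4 replicate 2, 15 were called lower and 0 higher in sgBap1 mice. These medians are the same with Cyp3a41b, at 0 counts in every CCl4 mouse, set to its bound of at least 70.3-fold lower in NTC mice. Of the 11 male-biased genes tested, 5 were called lower and 2 higher in NTC mice and 4 and 2 in sgBap1 mice. Leaving out sgBap1-CCl4 replicate 2, 5 were called lower in sgBap1 mice. Of 9 genes of growth hormone signaling, 6 were called lower and 1 higher in NTC mice and 4 and 1 in sgBap1 mice. In sgBap1 mice without replicate 2 of sgBap1-CCl4, 3 were called lower. Scaled by library size alone, the counts were 4 and 3 in NTC and 3 and 3 in sgBap1 mice. Ghr, the receptor (−1.91 and −2.24), and Stat5b, its effector (−0.68 and −0.91), fell in NTC and sgBap1 mice. Jak2, the kinase bound to the receptor, was the one called higher (0.74 and 0.64). Beside these list counts, 53.9% of all genes tested were called with CCl4 in NTC mice and 57% in sgBap1 mice.

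Bcl6, a repressor of female-biased genes, was called higher in sgBap1 mice with both treatments. It stood at 5.17 and 6.82 CPM in NTC-Veh and 25.3 and 18.5 in sgBap1-Veh (log2 fold change 1.87, SE 0.22, adjusted p = 0.0191). It stood at 7.08, 10.1 and 8.3 CPM in NTC-CCl4 and 26.3, 21.3 and 21.8 in sgBap1-CCl4 (1.45, SE 0.17, adjusted p = 0.0188). Leaving out each mouse in turn, the estimates ran from 1.62 to 2.08 with vehicle and from 1.33 to 1.59 with CCl4. The call with vehicle was lost without NTC-Veh replicate 1 or 2 or sgBap1-Veh replicate 1 (adjusted p of up to 0.104), and that with CCl4 without NTC-CCl4 replicate 1 or 3 or sgBap1-CCl4 replicate 1 (up to 0.092). None of the 18 female-biased genes was called between guides with either treatment, with medians of 0.02 and −0.33.

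Genes of both liver zones fell. Of 12 pericentral hepatocyte genes, 11 were called lower in NTC mice and 10 in sgBap1 mice, and of 12 periportal genes 10 and 11 were. The pericentral genes summed to 13741 to 17370 CPM in the vehicle mice and to 1505 to 1977 CPM in the CCl4 mice. For the periportal genes the sums were 12719 to 17967 CPM and 4771 to 6600 CPM. Cyp2e1, the enzyme that activates CCl4, fell in NTC and sgBap1 mice (−5.71 and −6.08), as did Glul, the glutamine synthetase of the innermost cells (−4.21 and −3.77). Alb, which encodes albumin, had estimates of −0.76 (adjusted p = 0.0168) and −0.42 (adjusted p = 0.142). The list medians in NTC and sgBap1 mice were −2.22 and −2.61 for the pericentral genes and −1.75 and −1.53 for the periportal genes. Nr1i3 was at −2.45 and −2.89, and the part of the pericentral cells in its fall was not tested.

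**Figure D5:**
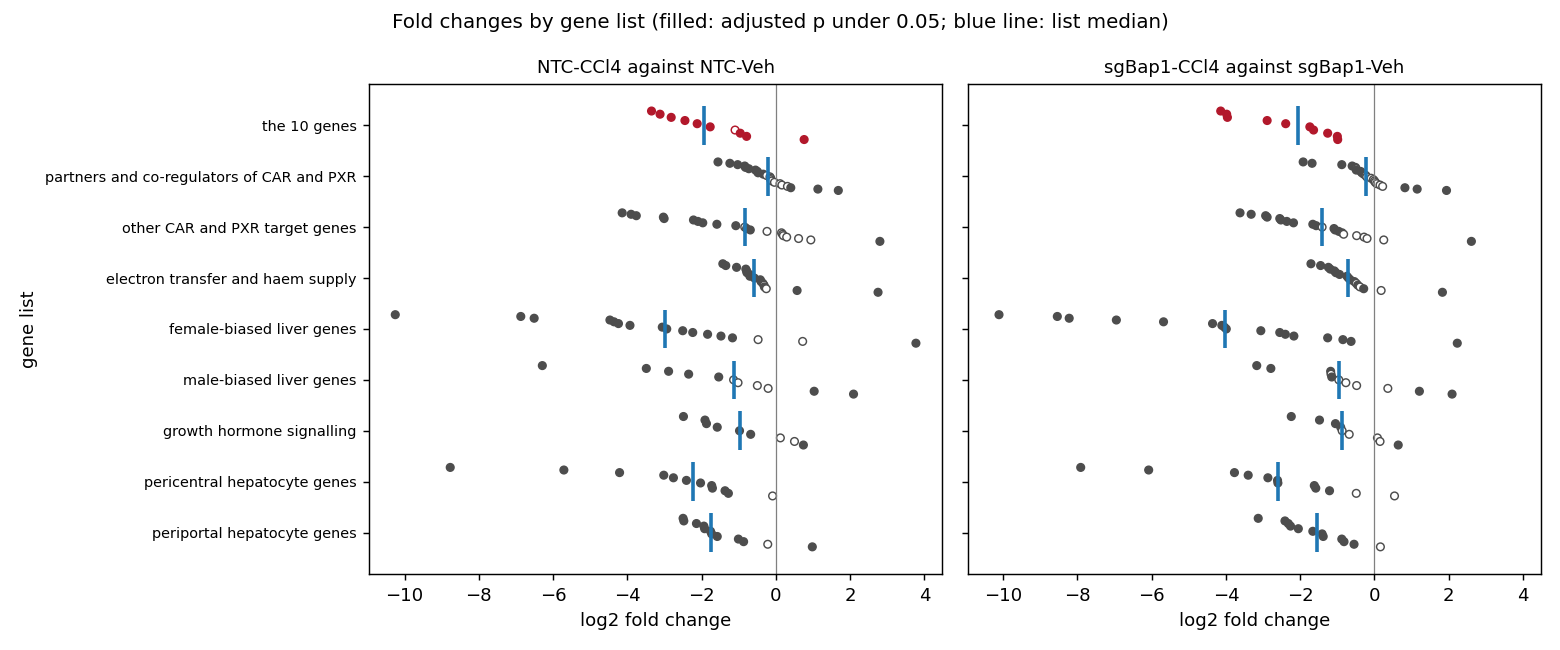
Log2 fold changes with CCl4 in NTC and sgBap1 mice of the members and of the lists of related genes; each point is 1 gene tested, filled where it passed the test, and each blue line a list median. The medians lie at −0.21 and −0.22 for the partners of CAR and PXR, and at −3.0 and −4.02 for the female-biased genes; Cyp3a41b, at 0 counts in all CCl4 mice, is not drawn but counts in the median.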

How the data were processed

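RNA from the livers of the 10 mice was sequenced as paired 50-base reads from stranded mRNA libraries. The authors aligned reads with STAR 2.7.6a and deposited estimated counts per gene from Salmon 1.4.0 (GENCODE vM25, GRCm38), and whether Salmon used strand is not given in the sources used here. Of these values 9.22% were not whole, and all were rounded. Libraries held 33047904 to 52199904 counts. The floor of 3 counts covers counting error only.

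Genes were filtered by filterByExpr over the 4 groups, scaled by TMM and fitted in one model of the 10 mice with edgeR 4.0.16 (R 4.3.3; quasi-likelihood test, robust), with Benjamini-Hochberg adjustment over 17015 genes and a threshold of 0.05. The SE was the log2 fold change divided by the square root of F. Similarity of patterns used log2 CPM with 2 counts added. The fit was tested on simulated data. DESeq2 1.42.0, other scalings, filters and the fits without 1 mouse were alternatives. Replicate numbers did not pair the mice (correlations of deviations −0.15 to 0.1).

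Positions and shared 50-base stretches came from GENCODE vM21, and promoters from RefSeq (GRCm38.p6), in which all 10 members were found. The members, lists and tests were chosen with earlier results of these data known. Named genes were the members, Bap1, the other genes of the Cyp2 cluster, from each list and comparison up to 4 called genes of largest change (mean of 100 counts or more, groups that did not overlap), and the 3 genes most like each member; not all are printed. Rxra, Hnf4a and Abcc4 were named outside this rule for their known roles, after their values were seen.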

Additional observations from a re-analysis of the deposited data

Results flagged for a closer look

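The change of Cyp2a4 with CCl4 differed between guides by −1.75 on the log2 scale (SE 0.30). It was flagged because all 3 NTC-CCl4 mice lay above both NTC-Veh mice, while all 3 sgBap1-CCl4 mice lay below both sgBap1-Veh mice. The adjusted p of the interaction in edgeR's quasi-likelihood test was 0.0694 (unadjusted p = 0.00014), and over the fits that left out 1 mouse each the estimate ran from −1.96 to −1.59 with adjusted p from 0.0749 to 0.223. Groups of 2 or 3 mice were too small for a search for single outlying mice.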

How the results depend on the processing

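The fall of Nr1i3, Nr1i2, Por, Cyp2b9, Cyp2b13, Cyp2a12 and Cyp2a22 with CCl4 was called for either guide under every alternative run and without any 1 mouse. Members called between the guides with vehicle came to 1 (Cyp2a4) when scaled by library size alone, with no filter beyond 1 count, with the edgeR 3 method (adjusted p = 0.05 after rounding, just under the threshold), with DESeq2 and with only the mice of the 2 groups, and to 3 with DESeq2 for the guides with CCl4 and 1 for the interaction. All genes called for the guides with vehicle (69) came to 32 by library size, 1 with the replicate block, 548 with DESeq2 and 27 with only the 4 mice compared. With CCl4 (56) they came to 94 with no filter, 24 with the replicate block, 480 with DESeq2 and 28 with only the 6 mice, and by library size 50% were higher in place of 60.7%. For the interaction (0) they came to 2 by library size, 34 with no filter and 406 with DESeq2. The replicate block changed no call of a member, and the numbers give no pairing.

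Leaving out each mouse in turn, all genes called ran from 0 (without NTC-Veh replicate 2) to 150 (without sgBap1-CCl4 replicate 2) for the guides with vehicle, from 1 (without NTC-CCl4 replicate 1) to 71 with CCl4 and from 0 to 7 for the interaction, and members called between the guides with vehicle from 0 to 1. The estimate turned sign within −0.45 to 0.30 for Cyp2b13, −0.15 to 0.01 for Cyp2b9 and −0.80 to 0.90 for Cyp2b10 (−0.04 for the Cyp2b sum) between the guides with vehicle, within −0.81 to 1.02 for Cyp2a5 between the guides with CCl4, and for the interaction within −1.14 to 0.56 for Cyp2b10 and −1.55 to 0.28 for Cyp2a5. The value 1.02 came without NTC-CCl4 replicate 2. Summed with Cyp2a5, Cyp2a4 was at −0.24 with CCl4 in NTC mice, since the sum holds both genes. The call for Cyp2a5 in NTC mice was lost with only the mice of the 2 groups (adjusted p = 0.0904), and that for Cyp2b10 in sgBap1 mice by library size (0.0618) and with no filter (0.0565). The cause of these changes was not tested. Libraries held at least 33047904 counts. Shares of 2 against 2 mice cannot reach an exact permutation p below 0.333.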
